A study of Mus musculus with 12 samples.

Results

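A set of 9 genes that make, carry, take up or destroy retinoic acid, or respond to it, was examined in mammary tumours of mice with and without the retinoic acid receptor gene Rarb. They were Aldh1a1, Aldh1a2, Aldh1a3, Cyp26a1, Cyp26b1, Crabp1, Crabp2, Stra6 and Rarres2, chosen by name and found through the RefSeq accession of their array probe. The 9 genes stand among 20660 genes named on the array in this way. Of the 9, 8 passed the filter on dim probes, which 13351 genes passed in all. The gene left out by that filter was Cyp26a1.

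Cells take up retinol from the blood, where it travels on a carrier protein, and Stra6 is a membrane receptor for that carrier. Retinol is oxidised to retinal and then, by the retinaldehyde dehydrogenases of the Aldh1a family, to retinoic acid, the ligand of the retinoic acid receptors. Crabp1 and Crabp2 are small cytosolic proteins that bind retinoic acid. Crabp2 passes it to receptors in the nucleus, and Crabp1 has been linked to holding it in the cytosol and to its breakdown. The Cyp26 enzymes are cytochromes that break retinoic acid down, and Cyp26a1 is a classical target that retinoic acid induces. Rarres2 was named for its response to a retinoid and encodes chemerin, a secreted attractant of macrophages and other leukocytes and an adipokine.

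The 4 groups were tumour epithelium of Rarb -/- mice (KO epithelium), tumour epithelium of Rarb +/+ mice (WT epithelium), tumour stroma of Rarb -/- mice (KO stroma) and tumour stroma of Rarb +/+ mice (WT stroma). All were on the FVB background and all carried the MMTV-Wnt1 transgene, whose viral promoter drives Wnt1 in mammary epithelium, so the WT tumours are Wnt1-driven too. Epithelium and stroma were cut from stained sections by laser capture microdissection, and each RNA was labelled with Cy3 and hybridised against a Cy5-labelled universal mouse reference RNA, with 3 arrays per group. The 6 tumours, numbered 1, 3 and 4 in KO and 1, 2 and 3 in WT, each gave both compartments. The labels give no age and do not say whether the tumours are of different mice, so every p-value here rests on the spread among these samples alone. A level is given here as a log2 ratio, tumour RNA over reference RNA, where 0 means an equal signal and each unit is a doubling. A difference between groups is given as a log2 fold change from limma, a linear model fitted across all genes, and was called where its Benjamini-Hochberg adjusted p over the 13351 genes was under 0.05. Each of the 9 genes had 1 probe with 1 spot, and levels of different genes were not set against each other.

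Promoter windows of the breakdown enzymes are shown first, because the Cyp26a1 window holds a motif of the kind that retinoic acid receptors bind. The motif searched was a direct repeat of half-sites with 1, 2 or 5 bases between them, on both strands, in RefSeq windows of 300 bases around gene starts (GRCm38.p6). A half-site was AGGTCA or a variant of it. The variants allowed were AGTTCA, where the middle differs, then GGGTCA, where the first base differs, and lastly GGTTCA, where both differ. For 6 of the 9 genes 10 windows were at hand, and windows of Aldh1a3, Crabp2 and Rarres2 were not analysed here. Of the 10 windows, 1 held a repeat. It lay in Cyp26a1 on the minus strand with 5 bases between its half-sites, from base -32 to base -16 relative to the start, and is in capitals below. Repeats with that spacing were in 32 of all 32851 windows of the same length (0.0974%), and any of the 3 spacings in 0.588%. The windows of Cyp26b1, its paralogue, and of Crabp1, the gene among the called ones that had a window, held none. A match is a description of the letters and not a shown binding site, and no match says nothing about the receptor.
Cyp26a1, chr19:37697558-37697857, plus strand: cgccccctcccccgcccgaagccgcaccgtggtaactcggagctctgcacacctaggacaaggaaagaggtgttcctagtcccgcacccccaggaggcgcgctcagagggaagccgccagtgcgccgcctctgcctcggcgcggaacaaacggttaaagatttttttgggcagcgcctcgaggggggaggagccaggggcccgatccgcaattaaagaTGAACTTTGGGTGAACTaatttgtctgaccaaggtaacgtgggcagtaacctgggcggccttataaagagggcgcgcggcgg
Cyp26b1, chr6:84593761-84594060, minus strand: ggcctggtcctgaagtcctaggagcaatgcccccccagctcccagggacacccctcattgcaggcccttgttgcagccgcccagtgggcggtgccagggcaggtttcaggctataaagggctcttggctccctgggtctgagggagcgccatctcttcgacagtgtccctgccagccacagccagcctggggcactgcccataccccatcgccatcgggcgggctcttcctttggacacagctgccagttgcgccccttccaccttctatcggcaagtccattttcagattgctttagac
Crabp1, chr9:54764498-54764797, plus strand: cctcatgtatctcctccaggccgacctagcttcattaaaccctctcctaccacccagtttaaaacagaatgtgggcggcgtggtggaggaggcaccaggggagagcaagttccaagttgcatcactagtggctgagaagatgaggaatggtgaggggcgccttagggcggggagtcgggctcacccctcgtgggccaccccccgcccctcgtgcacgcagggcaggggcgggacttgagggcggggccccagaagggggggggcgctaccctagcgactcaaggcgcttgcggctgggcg

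Per array, between 36.0% and 46.3% of probes had Cy3 well above background, and saturated spots numbered 0. The targeted gene did not separate the genotypes. The Rarb log2 fold change of KO over WT was -0.04 in epithelium (limma adjusted p = 0.993) and 1.14 in stroma (adjusted p = 0.402). This rests on 1 probe, as a second Rarb probe was above background on 0 of the 12 arrays, WT included. The sources used here do not give where either probe lies relative to the deleted part. The libraries labelled WT stroma stood near epithelium. The mean log2 ratio over 9 luminal epithelial markers ran from 0.55 to 1.40 in KO stroma and from 2.23 to 2.93 in WT stroma, against 2.70 to 3.04 in KO epithelium and 2.59 to 3.06 in WT epithelium. The mean over 10 fibroblast markers ran from 3.25 to 3.59 in KO stroma and from 0.58 to 2.11 in WT stroma. KO and WT stroma thus differed in marker levels, and a change of cell makeup and a change of RNA per cell cannot be told apart in such bulk samples. Epithelium and stroma lay on separate slides, and KO and WT in separate rows of each slide, so compartment and slide, and genotype and row, cannot be told apart.

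**Figure D1:**
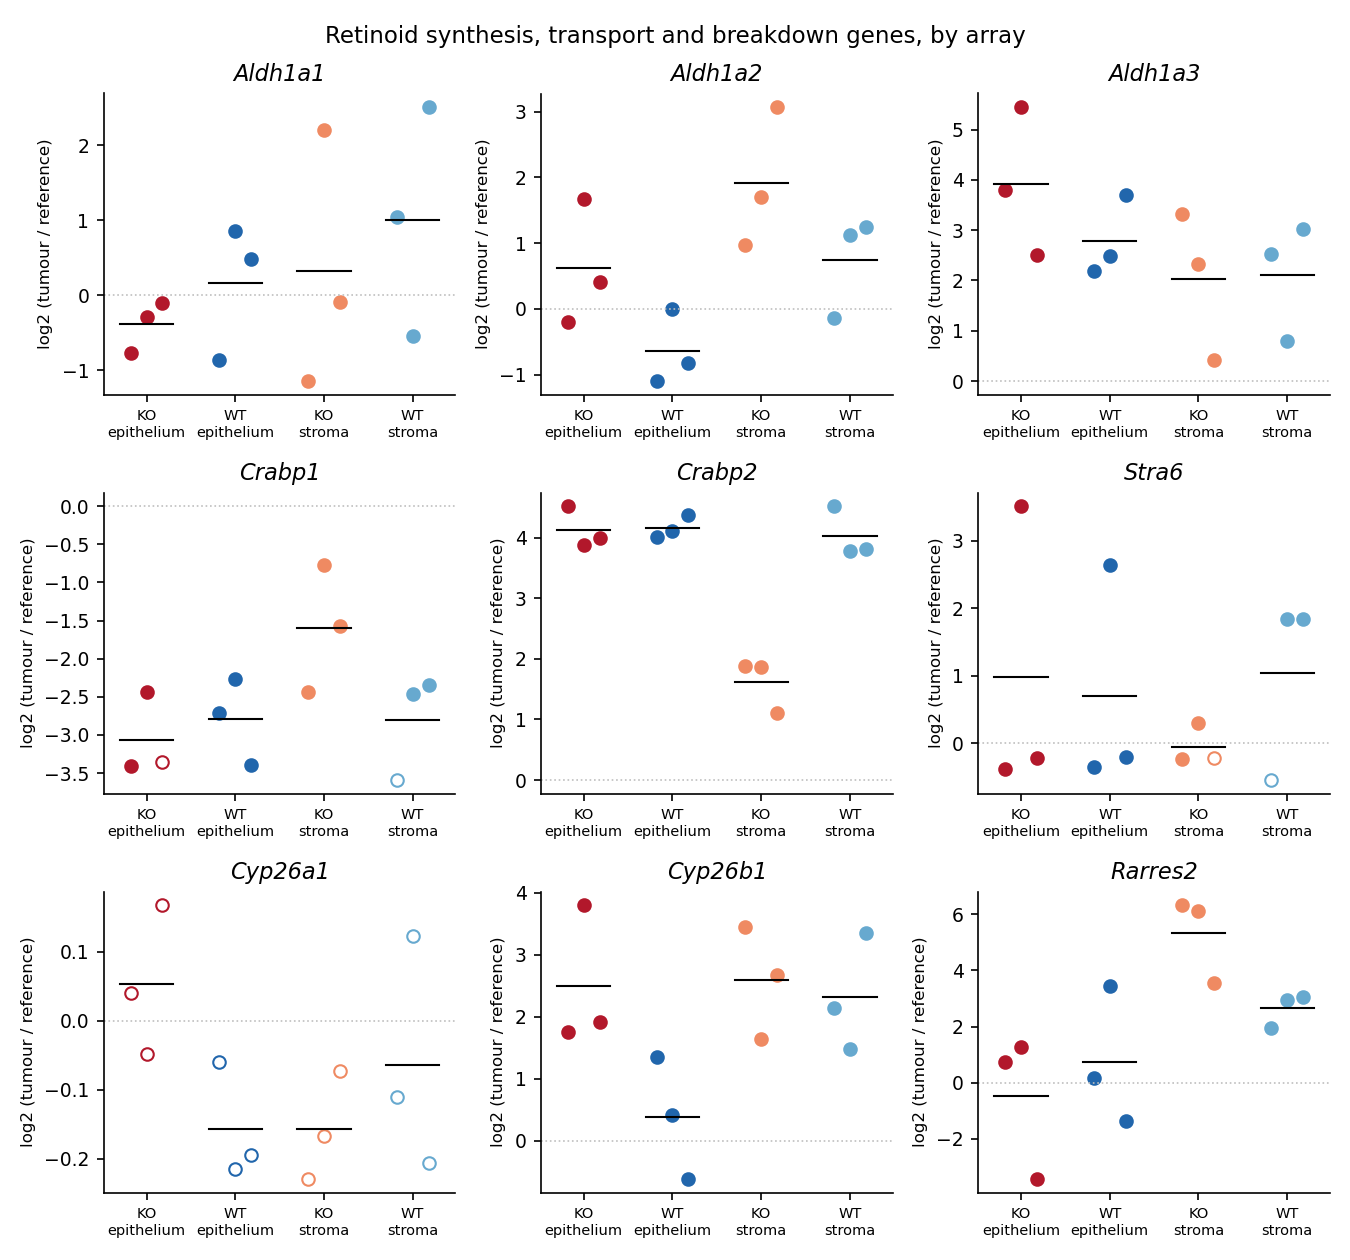
Log2 ratio of tumour RNA over reference RNA (y axis, a scale of its own in each panel) of the 9 genes in epithelium of KO and WT tumours and in stroma of KO and WT tumours (x axis), 1 point per array and a bar at the group mean (n = 3). Open points were not well above background in Cy3, which holds for Cyp26a1 on all 12 arrays. Crabp2 sits between 1.11 and 1.89 in KO stroma and between 3.77 and 4.52 on the 9 other arrays.

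In stroma, Crabp2, the carrier that hands retinoic acid to its receptors, was lower in KO than in WT tumours, and no other of the 9 genes was called between the genotypes in the main comparison. Its log2 ratios were 1.89, 1.86 and 1.11 in KO stroma (tumours 1, 3 and 4), against 4.52, 3.77 and 3.80 in WT stroma (tumours 1, 2 and 3). The groups were far apart, with the highest KO stroma below the lowest WT stroma. It was a log2 fold change of -2.41 ± 0.28 (SE, 95% interval -3.04 to -1.78, n = 3 each, limma adjusted p = 0.00399), which is 5.32-fold lower. The call held in all 16 alternatives that were run, with log2 fold changes between -2.54 and -2.16. Of all 13351 genes, 6.45% were called in stroma and 2.93% were called lower, so 1 lower gene of 8 is read against that background.

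Markers of luminal epithelium were also lower in KO stroma. Of the 9 measured, 4 were called lower and none higher, and their median log2 fold change was -1.16. Of 10 fibroblast markers 2 were called higher and none lower (median 2.40), and of 7 macrophage markers 3 were called higher and none lower (median 1.96). The 8 basal epithelial markers had means of 2.07 to 3.43 in KO stroma and 3.79 to 4.19 in WT stroma (median log2 fold change -1.36), and the 7 endothelial markers measured had means of 1.74 to 2.60 in KO stroma and 1.0 to 1.43 in WT stroma (median 0.87). Neither pair of ranges overlapped, and 0 markers of either list were called by limma, with 1 basal and 3 endothelial markers at an unadjusted p under 0.05. The 7 adipocyte markers had overlapping means, 1.30 to 5.50 in KO stroma and 1.35 to 2.04 in WT stroma (median 1.37, 0 called). The 6 T and NK cell markers had means of -0.55 to 0.95 in KO stroma and -0.36 to 3.61 in WT stroma, with 0 called. The 3.61 came from WT tumour 2 alone. Of 6 Schwann cell markers 1 was called higher and 1 lower. Wnt1, which the transgene drives in epithelium, was also lower in KO stroma. Its log2 ratios ran from 2.90 to 3.80 in KO stroma and from 6.53 to 7.20 in WT stroma, against 7.05 to 7.67 over both epithelial groups, and its log2 fold change between the stromal groups was -3.53 ± 0.29 (SE, limma adjusted p = 0.000857), 11.6-fold lower. A second, dimmer Wnt1 probe, above background on 9 arrays, ran from -0.03 to 0.36 in KO stroma and from 1.53 to 3.50 in WT stroma. In epithelium that probe was also lower in KO, at 0.96 to 1.44 against 1.77 to 3.28 in WT. The part of cell makeup in the Crabp2 difference was not tested. Across the 12 arrays Crabp2 and the luminal mean were both lowest on the 3 KO stroma arrays.

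**Figure D2:**
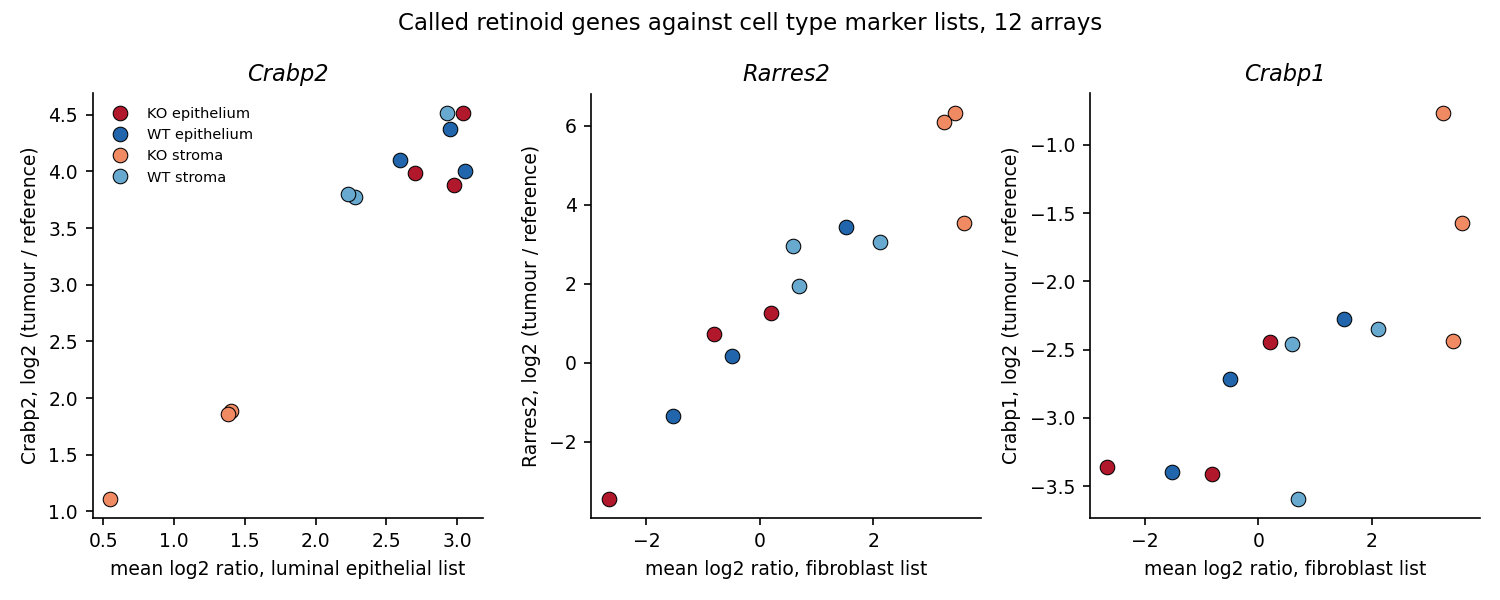
Log2 ratio of Crabp2 (y axis) against the mean log2 ratio of the luminal epithelial list (x axis), and of Rarres2 and Crabp1 against the mean of the fibroblast list, 1 point per array (12 arrays, colours by group). The 3 KO stroma arrays sit apart at the low luminal end, between 0.55 and 1.40, and at the high fibroblast end, between 3.25 and 3.59.

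Rarres2, the chemerin gene, had the largest stromal difference of the 8 genes tested but was not called. Its log2 ratios were 6.33, 6.11 and 3.55 in KO stroma, against 1.95, 2.96 and 3.06 in WT stroma. The lowest KO stroma lay just above the highest WT stroma, so the groups did not overlap. This gave a log2 fold change of 2.67 ± 1.40 (SE, 95% interval -0.42 to 5.77, n = 3 each, limma adjusted p = 0.308). The groups of 2 of the 8 genes did not overlap in stroma, namely Crabp2 and Rarres2, against 26.2% of all genes. With a block on replicate number in the fit Rarres2 was called, at a log2 fold change of 4.60 (limma adjusted p = 0.0359, and 0.0359 to 0.562 over the 16 alternatives). Only the numbers 1 and 3 occur in both genotypes, so that fit takes the level difference of the genotypes from tumours 1 and 3 alone. It treats those numbers as pairs across genotypes, which the labels do not say, so this call is not firm.

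Crabp1, the other cytosolic binder of retinoic acid, had log2 ratios of -2.44, -0.77 and -1.57 in KO stroma, against -3.59, -2.46 and -2.35 in WT stroma. The lowest KO value lay inside the WT range, and tumour 1 of WT was not well above background. Its log2 fold change was 1.21 ± 0.49 (SE, 95% interval 0.12 to 2.29, n = 3 each, limma adjusted p = 0.181). The remaining 5 genes had stromal log2 fold changes between -1.10 for Stra6 and 1.17 for Aldh1a2, each with a 95% interval that spans 0. The median over the 8 genes was 0.09, against -0.01 over all genes tested.

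**Figure D3:**
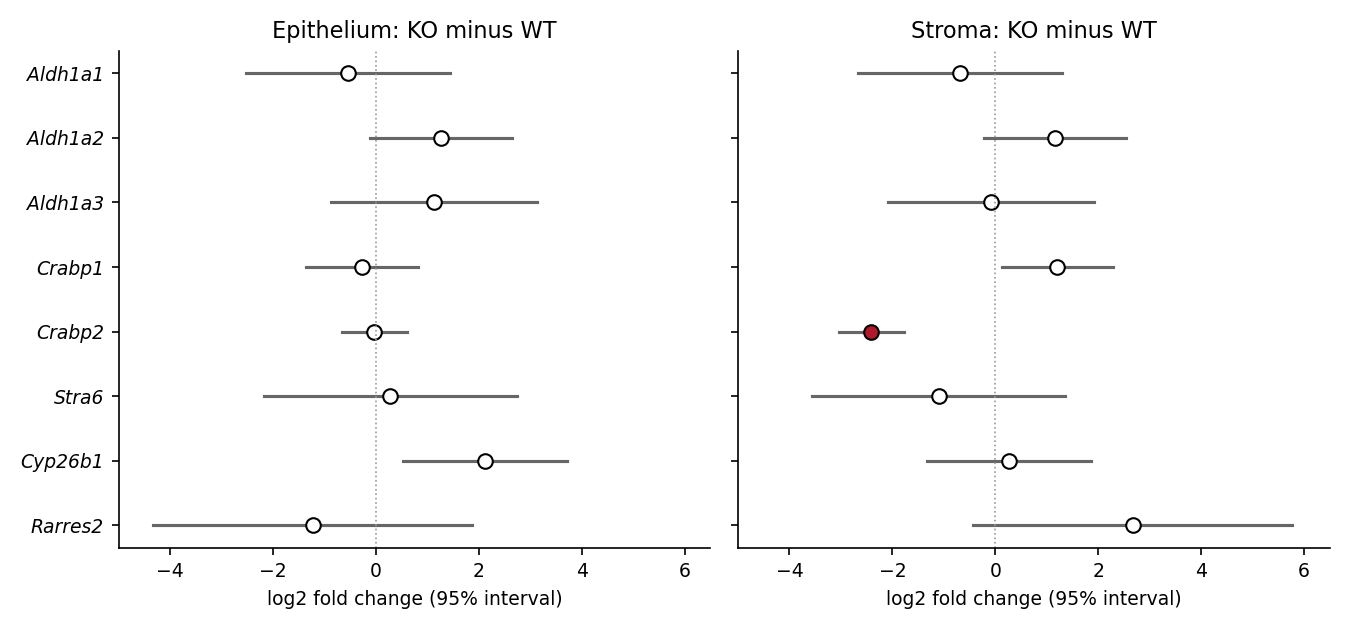
Log2 fold change of KO over WT (x axis) for the 8 genes that passed the filter (rows), in epithelium and in stroma, with 95% intervals from limma (n = 3 each). The filled point marks the called gene, Crabp2 in stroma at -2.41, and open points were not called.

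In epithelium none of the 8 genes was called between KO and WT. Over all genes limma called 1 of 13351 (0.00749%), and 1079 had an unadjusted p under 0.05. Crabp2 was level, with log2 ratios of 4.51, 3.88 and 3.99 in KO epithelium and 4.0, 4.10 and 4.38 in WT epithelium. These values overlapped throughout, and the log2 fold change was -0.04 (95% interval -0.66 to 0.59), an interval that does not reach the stromal difference. The median log2 fold change over the 8 genes was 0.12, against 0.03 over all genes tested.

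Cyp26b1, which degrades retinoic acid, was the member whose groups did not overlap in epithelium, where 14.0% of all genes did not overlap. Its log2 ratios were 1.75, 3.80 and 1.92 in KO epithelium, against 1.34, 0.41 and -0.62 in WT epithelium. All 3 KO values lay above all 3 WT values, but the gap between the nearest ones was small beside the spread within each group. The log2 fold change was 2.11 ± 0.72 (SE, 95% interval 0.52 to 3.70, n = 3 each), with an unadjusted p of 0.0141 from limma and an adjusted p of 0.613, so it was not called. In stroma its log2 ratios were 3.44, 1.65 and 2.67 in KO and 2.13, 1.48 and 3.35 in WT, with the groups overlapping. The difference of the KO effect between the compartments was -1.85 for Cyp26b1 (limma adjusted p = 0.460).

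Cyp26a1, the classical retinoic acid target shown above with its repeat, gave no level on any array. Its spot was not well above background in Cy3 on any of the 12 arrays, nor in Cy5, the reference RNA. The Cy3 spot intensities were 92, 103.5 and 86 in KO stroma and 88.5, 68 and 74 in WT stroma. In epithelium they were 89, 86 and 68 in KO and 75.5, 68 and 72 in WT, over local backgrounds of 21 to 26 on all arrays. No fold was computed from these values. The paralogue Cyp26b1 was well above background on all 12 arrays.

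Within the KO tumours, stroma and epithelium differed in Rarres2, Crabp2 and Crabp1. Rarres2 and Crabp1 were higher and Crabp2 lower in stroma than in epithelium of the same tumours. That makes 3 of 8 genes called, against 20.0% of all genes, of which 10.2% were higher and 9.86% lower. The median log2 fold change over the 8 genes was 0.40, against -0.03 over all genes tested. The sign was the same in all 3 KO tumours for 5 of the 8 genes, against 54.4% of all genes.

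Rarres2 had log2 ratios of 6.33, 6.11 and 3.55 in KO stroma, against 0.73, 1.25 and -3.44 in KO epithelium of tumours 1, 3 and 4. Tumour 4 was lowest in both compartments, and the stroma minus epithelium difference was 5.60, 4.85 and 6.99 in the 3 tumours. The log2 fold change was 5.81 ± 0.85 (SE, 95% interval 3.77 to 7.85, limma adjusted p = 0.00700), which is 56.2-fold higher in stroma. It was called in all 15 alternatives, between 5.23 and 6.29. The normalized Cy5 signal of the Rarres2 spot, the common reference, differed by -0.32 on the log2 scale between the same arrays (limma adjusted p = 0.0267), which is small beside the ratio. This was not particular to Rarres2. Between compartments the Cy5 signal was called for 3056 of 13351 genes in KO tumours and for 847 in WT tumours. Between genotypes it was called for 36 genes in epithelium and 0 in stroma. This signal was rebuilt from the loess ratio and the mean log2 intensity of both channels, with the latter quantile normalized between arrays. The tumour channel therefore enters it, and it is not a direct reading of the reference RNA.

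Crabp2 had log2 ratios of 1.89, 1.86 and 1.11 in KO stroma, against 4.51, 3.88 and 3.99 in KO epithelium. Every stroma value was below every epithelium value, with differences of -2.63, -2.01 and -2.87 in the 3 tumours. The log2 fold change was -2.50 ± 0.27 (SE, 95% interval -3.14 to -1.87, limma adjusted p = 0.00289), which is 5.67-fold lower in stroma, and it was called in all 15 alternatives. Crabp1 had log2 ratios of -2.44, -0.77 and -1.57 in KO stroma, against -3.41, -2.44 and -3.36 in KO epithelium. Stroma was above epithelium in each tumour, by 0.97, 1.68 and 1.79, and tumour 4 of KO epithelium was not well above background. This gave a log2 fold change of 1.48 ± 0.36 (SE, limma adjusted p = 0.0337), which is 2.79-fold higher in stroma. This call was lost in 7 of 14 alternatives, with adjusted p between 0.0115 and 0.132, among them leaving out any KO tumour (0.0725 without tumour 1, 0.131 without tumour 3 and 0.132 without tumour 4) and leaving out WT tumour 2 (0.0537), so the Crabp1 call is not firm.

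Some of the marker lists also differed between the compartments. In KO tumours all 10 fibroblast and all 7 macrophage markers measured were called higher in stroma, and 7 of 9 luminal markers were called lower with none higher. The mean over the fibroblast list ran from 3.25 to 3.59 in KO stroma and from -2.66 to 0.20 in KO epithelium, and that over the macrophage list from 3.55 to 4.02 in KO stroma and from 0.51 to 1.44 in KO epithelium. Of 7 adipocyte markers 3 were called higher in KO stroma, with list means of 1.30 to 5.50 in KO stroma and -0.97 to 1.91 in KO epithelium. Of 7 endothelial markers 3 were called higher and 0 lower, and of 8 basal epithelial markers 1 was called lower and 0 higher. Of 6 Schwann cell markers 1 was called higher and 1 lower, and of 6 T and NK cell markers 0 were called. Among the 6 epithelial arrays, the array lowest in Rarres2 (KO tumour 4, -3.44) was also lowest in the fibroblast and adipocyte means (-2.66 and -0.97), and the highest (WT tumour 2, 3.43) was also highest in both (1.51 and 3.70). The part of these cells in the Rarres2, Crabp1 and Crabp2 differences was not tested.

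**Figure D4:**
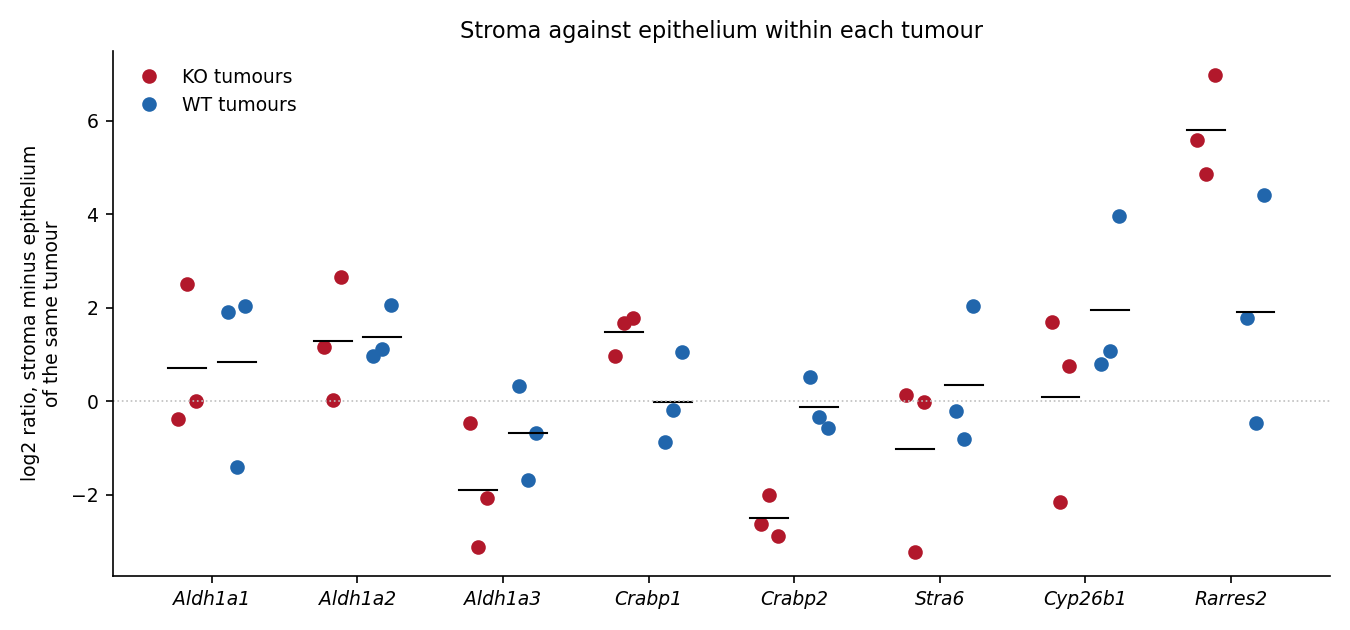
Log2 ratio in stroma minus that in epithelium of the same tumour (y axis) for the 8 genes that passed the filter (x axis), KO tumours left of WT tumours, 1 point per tumour and a bar at the mean (n = 3 each). Rarres2 lies between 4.85 and 6.99 in the KO tumours, and Crabp2 between -2.87 and -2.01.

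Within the WT tumours none of the 8 genes was called between stroma and epithelium, where 1 of 13351 genes was called (0.00749%) and 1179 had an unadjusted p under 0.05 in limma. Rarres2 had log2 ratios of 1.95, 2.96 and 3.06 in WT stroma, against 0.16, 3.43 and -1.36 in WT epithelium. Stroma was higher in tumours 1 and 3 and lower in tumour 2, and the log2 fold change was 1.91 ± 0.85 (SE, limma adjusted p = 0.580). Crabp2 had log2 ratios of 4.52, 3.77 and 3.80 in WT stroma and 4.0, 4.10 and 4.38 in WT epithelium, which overlap. Its log2 fold change was -0.13 (95% interval -0.77 to 0.51). Crabp1 differed by -0.01 (95% interval -0.88 to 0.86). In 2 of the 8 genes, Aldh1a2 and Cyp26b1, the sign was the same in all 3 WT tumours, against 31.4% of all genes. The median log2 fold change over the 8 genes was 0.59, against 0.02 over all genes tested.

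The difference of the KO effect between stroma and epithelium, tested with tumour as a block, was called for none of the 8 genes and for 0 of 13351 genes (0%), while 2418 genes had an unadjusted p under 0.05 in limma. Crabp2 came nearest. Its KO effect was lower in stroma than in epithelium by a log2 difference of -2.38 ± 0.38 (SE, 95% interval -3.28 to -1.47, limma adjusted p = 0.0660). It was called in 4 of 15 alternatives, over which the adjusted p ran from 0.0158 to 0.239. The difference was 3.90 for Rarres2 (95% interval 1.02 to 6.78, limma adjusted p = 0.183) and 1.49 for Crabp1 (95% interval 0.25 to 2.72, limma adjusted p = 0.212).

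The retinaldehyde dehydrogenases, which make retinoic acid, were not called in any comparison. Aldh1a3 had log2 ratios of 3.32, 2.32 and 0.43 in KO stroma, against 3.80, 5.45 and 2.51 in KO epithelium. It was lower in stroma in all 3 KO tumours, although the groups overlap, with a log2 fold change of -1.89 ± 0.55 (SE, 95% interval -3.19 to -0.59, limma adjusted p = 0.0534). In 4 of 15 alternatives it was called, with adjusted p between 0.0367 and 0.215. The reference signal of Aldh1a3 in Cy5 was well above background on 8 of the 12 arrays. In the WT tumours its log2 ratios were 2.52, 0.80 and 3.02 in stroma and 2.18, 2.48 and 3.71 in epithelium, a log2 fold change of -0.68 (limma adjusted p = 0.799). The order of the 4 group means was KO epithelium, WT epithelium, WT stroma and KO stroma from high to low, and no neighbours in it differed beyond their spread.

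Aldh1a2, the main enzyme of the embryo, ran the opposite way to Aldh1a3 in its means, with stroma above epithelium in each of the 6 tumours. Its log2 ratios were 0.97, 1.70 and 3.07 in KO stroma, against -0.19, 1.67 and 0.40 in KO epithelium, and -0.13, 1.13 and 1.24 in WT stroma, against -1.10, 0.00 and -0.82 in WT epithelium. In KO tumour 3 the compartments were level. The log2 fold change of stroma over epithelium was 1.29 ± 0.48 in KO tumours (SE, limma adjusted p = 0.106) and 1.38 ± 0.48 in WT tumours (SE, adjusted p = 0.507), and neither was called. The log2 fold change of KO over WT was also similar in size in both compartments, 1.26 in epithelium (limma adjusted p = 0.640) and 1.17 in stroma (adjusted p = 0.318).

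Aldh1a1, a dehydrogenase also used as a stem cell marker in mammary tissue, varied widely within groups. Its log2 ratios were -1.15, 2.21 and -0.09 in KO stroma, 1.04, -0.55 and 2.51 in WT stroma, -0.78, -0.29 and -0.10 in KO epithelium and -0.86, 0.86 and 0.48 in WT epithelium. All 4 groups overlapped, and its log2 fold changes ran from -0.68 to 0.84 over the comparisons of KO with WT and of stroma with epithelium. Its probe may also bind RNA of Aldh1a7, a near-identical mouse copy that has a probe of its own and was not called either.

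Stra6, the receptor that takes up retinol, was high on some arrays only. Its log2 ratios were -0.37, 3.51 and -0.21 in KO epithelium and -0.35, 2.65 and -0.21 in WT epithelium. In stroma they were -0.24, 0.29 and -0.22 in KO and -0.55, 1.84 and 1.84 in WT, with 1 array of each stromal group not well above background. The low epithelial values came from dim spots, with Cy3 intensities of 106 and 89 in KO tumours 1 and 4 and 96 and 114 in WT tumours 1 and 3. These were flagged well above background but lie close to the Cyp26a1 spots (68 to 103.5). Their ratios near 0 are thus not firm as levels. KO tumour 3 stood out in epithelium and not in stroma, while WT tumour 2 was high in both compartments and WT tumour 3 only in stroma. No comparison of Stra6 was called, and the 95% interval of its KO effect ran from -2.19 to 2.74 in epithelium and from -3.56 to 1.36 in stroma.

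Among 56 other genes of retinoid biology, 38 passed the filter. They comprised 34 genes that handle retinol, retinal and retinoic acid (21 tested), 7 nuclear receptors (7 tested), 12 genes known as retinoid targets (9 tested) and 3 chemerin receptors (1 tested). In stroma 1 of the 38 was called higher in KO and 1 lower, against 3.52% and 2.93% of all genes. Lama1, a laminin chain that retinoic acid induces in embryonal carcinoma cells, had log2 ratios of 1.55, 3.25 and 2.92 in KO stroma, against 5.29, 4.65 and 4.34 in WT stroma. Its groups lay apart, with a log2 fold change of -2.18 ± 0.40 (SE, limma adjusted p = 0.0150), 4.55-fold lower in KO stroma. Its mean log2 ratio was higher in epithelium, at 5.76 in KO and 6.25 in WT. The part of cell makeup in the Lama1 difference was not tested. The adjusted p of Lama1 ran from 0.0102 to 0.0703 over the alternatives, and the call was lost without WT stroma replicate 1 (0.0632) and when the 6 stromal arrays were fitted alone (0.0703).

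In epithelium none of the 38 was called between the genotypes. The smallest p belonged to Rxrg and Rxra, partners of the retinoic acid receptors, with log2 fold changes of -0.44 and -0.64 (limma adjusted p = 0.613 for each). A second probe gave 0.38 for Rxrg and 0.04 for Rxra, so the probes of each gene disagree in sign. None of the 7 receptors was called in any of the 5 comparisons.

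Between stroma and epithelium of KO tumours, 2 of the 38 were called higher and 2 lower, against 10.2% and 9.86% of all genes. Adh1, an alcohol dehydrogenase that can oxidise retinol, had log2 ratios of 1.63, 2.85 and 0.50 in KO stroma, against -0.28, -0.21 and -0.40 in KO epithelium. The compartments lay apart, with a log2 fold change of 1.96 ± 0.38 (SE, limma adjusted p = 0.0165). Its adjusted p ran from 0.00649 to 0.185 over 14 alternatives, and the call was lost without KO tumour 1 (0.0708) or KO tumour 3 (0.0524) and with no tumour block (0.185) or a random one (0.0910). With Agilent's processed signals its log2 fold change was 3.93.

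Lama1 was lower in KO stroma than in KO epithelium, where its log2 ratios were 5.94, 5.70 and 5.64, by a log2 fold change of -3.19 ± 0.38 (SE, limma adjusted p = 0.00390). In WT tumours none of the 38 was called between compartments, and Lama1 stood at a log2 fold change of -1.50. None was called when the KO effect was compared between compartments, where Dhrs3, a retinal reductase, was among the smallest p with a log2 difference of 1.13.

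The genes whose log2 ratios were most like those of the 3 called members were named by Pearson's r over the 12 arrays, which share the 6 tumours and the split into 4 groups. For Crabp2 they were Elf5, a transcription factor of luminal cells that is itself on the luminal list (r = 0.98), Plet1, a surface protein of epithelial progenitors (0.98), and Ttc39a (0.98). For Rarres2 they were Ifi27l2a, an interferon-induced gene (r = 0.97), Fxyd1, a regulator of the sodium pump (0.97), and Serping1, an inhibitor of complement (0.96). For Crabp1 they were Cyp7b1, an oxysterol hydroxylase (r = 0.97), Twist2, a mesenchymal transcription factor (0.94), and Ipo13, a nuclear import receptor (0.91). These values describe likeness over arrays whose groups also differ in marker levels.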

How the data were processed

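RNA of laser-captured epithelium and stroma was measured on 12 two-colour Agilent arrays, with the tumour RNA in Cy3 and a reference RNA in Cy5 and no dye swap, per the labels' protocols. The deposited scanner files, made with Feature Extraction 10.7.3.1 per the file headers, hold, for both channels, median intensity of spots and of local background, intensity after Agilent's own correction, quality flags, and the log10 ratio (Cy5 over Cy3). The deposited table of log2 values was made in a way that the sources used here do not give. Across probes, which are not independent replicates, its 6 epithelial columns had r between -0.902 and -0.869 with the same array's log2 ratio of tumour over reference, so they run as reference over tumour and are centred near 0 (medians -0.03 to 0.03). They were turned round and used as an alternative. Its 6 stromal columns (medians -0.01 to 0.03) went with no array (r at most 0.00881 in size), so their scale and direction are unknown and they were not used.

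Median signals were corrected with normexp (offset 50) and loess within arrays, with control spots at weight 0, and turned to tumour over reference. The plan named spot signals, for which the files here hold medians. Non-uniform spots were set missing, up to 211 per array. Spots of a probe were averaged (55681 probes, 27235 named by matching unversioned accessions to RefSeq, GRCm38.p6). Probes needed Cy3 well above background on 3 or more of the 12 arrays, and a gene was read from its brightest probe. The number of arrays limits the precision.

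Tests were run with lmFit and eBayes of limma 3.58.1 under R 4.3.3. The KO over WT contrasts came from 4 group means fitted to the 12 arrays, with 8 residual degrees of freedom. For stroma over epithelium, and for the compartment difference of the KO effect, tumour was a fixed block, with 4 residual degrees of freedom. Titles pair the compartments by genotype and number. Deviations from the group means correlated between compartments of a tumour at 0.09, 0.29 and 0.23 (KO 1, 3, 4) and 0.45, 0.29 and 0.25 (WT 1, 2, 3), each above any other stroma of the group. KO and WT share only the numbers 1 and 3, and these correlated at 0.30 and -0.30 in epithelium, so numbers were not taken to pair genotypes. The model fits were run on simulated data in which arrays were independent, and only the KO over WT contrasts were checked there. The alternatives changed the signals, normalization, filter, probe choice, weights, block and samples.

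The text names all 9 genes in each comparison, up to 4 called genes per direction among the other retinoid genes (or the 2 with the smallest p), and the 3 genes most like each called member. The members, lists and this rule were chosen with earlier results of these data known. Some genes taken by the rule are counted and not reported here.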

Additional observations from a re-analysis of the deposited data

How the results depend on the processing

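Of 614 values of the 8 tested genes under the alternatives, 42 changed direction, in 15 results that were never called. The smallest limma adjusted p among those 42 values was 0.70. Of the 614 values, 7 lost a call (Crabp1, stroma over epithelium in KO tumours) and 9 gained a call. The cause was not tested. The number of the 8 genes called for the difference of the KO effect was 1 in place of 0 (Crabp2) with Cy3 above background on all 12 arrays, with no tumour block, with scale normalization and with tumour as a random block (correlation 0.224). For KO against WT in stroma it was 2 in place of 1 with the replicate block on the numbers shared by the genotypes (Rarres2 added), and the block changed no other call of these genes. Direction turned, on the log2 scale, as follows. With array weights the difference of the KO effect was 0.090 for Aldh1a1 and 0.070 for Aldh1a2, and KO over WT in epithelium was 0.0043 for Crabp2 and -0.34 for Stra6. With median centring the difference for Aldh1a2 was 0.019. With Agilent's processed signals KO over WT was 0.12 for Aldh1a3 in stroma and 0.023 for Crabp2 in epithelium. With the replicate block it was 0.26 for Aldh1a3 in stroma, and in epithelium 0.0061 for Crabp1, 0.047 for Crabp2 and 0.70 for Rarres2. With scale normalization Crabp2 was 0.16 in epithelium, and Cyp26b1 was -0.040 for stroma over epithelium in KO tumours. Leaving out each replicate moved KO over WT in epithelium between -0.23 and 0.089 for Crabp2, -2.28 and 0.25 for Rarres2 and -0.99 and 1.25 for Stra6. In stroma the ranges were -1.62 to 0.077 for Aldh1a1, -0.74 to 0.71 for Aldh1a3 and -0.16 to 0.78 for Cyp26b1. Stroma over epithelium in KO tumours ran from -0.18 to 1.26 for Aldh1a1, -0.70 to 1.22 for Cyp26b1 and -1.62 to 0.065 for Stra6, and in WT tumours from -0.53 to 0.43 for Crabp1, -0.45 to 0.092 for Crabp2 and -0.50 to 0.92 for Stra6. The difference of the KO effect ran from -1.25 to 0.46 for Aldh1a1 and -0.79 to 0.53 for Aldh1a2.

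Over all genes, 861 were called in stroma, against 294 with the 6 stromal arrays alone, 194 with median centring (46 higher and 148 lower, in place of 470 and 391), 314 and 514 without KO stroma replicates 1 and 3, and 175 and 353 without WT stroma replicates 1 and 2. Between compartments of KO tumours 2674 were called, against 1525 with median centring and 1207, 1149 and 1074 without KO replicates 1, 3 and 4. The difference of the KO effect gave 0, against 83 with the filter on all 12 arrays, 79 with array weights, 22 with no filter, 50 with no tumour block, 119 with scale normalization, 269 with a random block and 144 without WT replicate 3. In epithelium and between compartments of WT tumours every alternative gave 0 or 1. Median centring moved the median of all genes to -0.17 for KO over WT in epithelium, and the processed signals moved it to -0.11 for stroma over epithelium in KO tumours. Low signal leaves Cyp26a1 with no value and Crabp1, Stra6 and Adh1 with some arrays not well above background in Cy3. In Cy5 the spot was well above background on 8 of 12 arrays for Aldh1a3 and on 11 for Stra6.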
